A study of Mus musculus with 10 samples.

Results

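The genes described here are those for the cytoplasmic translation elongation factors of the mouse, Eef1a1, Eef1a2, Eef1b2, Eef1d, Eef1g, Eef1e1 and Eef2. They were taken by name from the count tables of 10 libraries, in which these 7 were among 35006 gene names. The libraries held poly-A RNA from live EpCAM+ crypt cells, taken from the small intestine of EF1a-OSCAR mice on a C57BL6/J background, with 10000 cells sorted for each population and 2 libraries for each of 5 populations. All mice carried the same reporter at the Rosa26 locus, driven by an EF1a promoter after a stop cassette had been removed with Vasa-Cre, and no library came from mice without it. The reporter makes mCherry and VeN90, a Venus that loses fluorescence when CDK9 phosphorylates it, from 1 mRNA. OSCAR is the ratio of VeN90 to mCherry, and EF1ahigh or EF1alow names a gate on the overall fluorescence of both proteins at a like ratio. P1 was OSCARlow EF1alow, P2 OSCARhigh EF1alow, P3 OSCARlow EF1ahigh, P4 OSCARmed EF1alow and P5 OSCARmed EF1ahigh. The gates were set on fluorescence and not on RNA. The species of the EF1a promoter in the reporter was not given in the sources used here, and the labels do not say whether the 2 libraries of a population came from separate animals, although the study describes them as biological replicates. The p-values therefore measure only the spread between these libraries.

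Elongation factors carry the ribosome through the codons of an mRNA. eEF1A brings each aminoacyl-tRNA to the ribosome as a complex with GTP, and its genes are Eef1a1, used in most tissues, and Eef1a2, known from muscle and neurons. The exchange complex eEF1B returns eEF1A to its GTP form, with Eef1b2 and Eef1d encoding its exchange subunits and Eef1g a structural subunit. Eef1e1, also called AIMP3 or p18, is a small relative of these subunits that is found in the multi-tRNA synthetase complex. eEF2, encoded by Eef2, moves the ribosome 1 codon on after each peptide bond. The mRNAs of eEF1A, the eEF1B subunits and eEF2 belong, with those of ribosomal proteins, to the class that begins with a pyrimidine tract and whose translation follows growth signals. The EF1A promoter is widely used to drive transgenes because it is active in many cell types, which is why endogenous Eef1a1 was read here against the EF1a gates.

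Eef1a1 lies at chr9:78326256-78336958 on the minus strand of NCBIM37 (mm9), and its reads are not all its own. The genome held 13 further places that matched at least 50% of its transcript at 90% identity or more, each aligned in 1 or 2 pieces. The first sequence is the 75 bases at positions 1108 to 1182 of the Eef1a1 transcript, within the coding part, shown because 5 of 12 such places hold it letter for letter, Gm13456 and Gm6548 among them. Below it stands the same stretch of Eef1a2, with the 21 differing bases in capitals.
Eef1a1: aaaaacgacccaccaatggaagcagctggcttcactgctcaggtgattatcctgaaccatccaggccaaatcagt
Eef1a2: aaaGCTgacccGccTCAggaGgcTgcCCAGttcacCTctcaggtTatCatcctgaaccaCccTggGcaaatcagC

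A read of the first sequence has several equal homes, whereas a read of the second belongs to Eef1a2 alone. The stretch at positions 998 to 1072 of the Eef1a1 transcript is shown because it separates Eef1a1 from the 2 copies with the most counts. Bases that differ from Eef1a1 are in capitals. This stretch of Eef1a1 still occurs letter for letter at another place in the genome, so a read of it also has an equal home. Gm13456 differed at 4 positions and Gm6548 at 1, T17A, counted from the 5′ end of the stretch with the Eef1a1 base first.
Eef1a1: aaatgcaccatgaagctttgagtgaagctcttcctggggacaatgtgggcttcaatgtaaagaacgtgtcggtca
Gm13456: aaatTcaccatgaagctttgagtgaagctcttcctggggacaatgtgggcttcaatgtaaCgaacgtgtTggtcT
Gm6548: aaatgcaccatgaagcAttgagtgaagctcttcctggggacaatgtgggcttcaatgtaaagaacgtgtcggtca

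Of the 1720 windows of 75 bases along the Eef1a1 transcript, 53.1% occurred exactly elsewhere in the genome and 93.4% occurred elsewhere with at most 2 mismatches. Every coding window of Eef1a1 had such a place. Even among the 518 windows that cross 1 of its 7 exon junctions, where a read has to be split to fit the gene but not to fit a copy without introns, 92.3% had one. Eef1g, at chr19:9041531-9052969, was shared to a like degree, with 60.2% of windows exact elsewhere and 75.6% within 2 mismatches. For Eef2, at chr10:80639376-80645252, the shares were 3.34% and 35.0%. Eef1b2, at chr1:63223399-63227060, and Eef1d, at chr15:75725226-75739986, had 2.95% and 2.85% of windows exact elsewhere. Eef1a2, at chr2:180882358-180891719, and Eef1e1, at chr13:38737567-38750897, had none. Reads with several equal places were not counted under the counter's default, so the levels of Eef1a1 and Eef1g rest on a part of each mRNA.

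**Figure D1:**
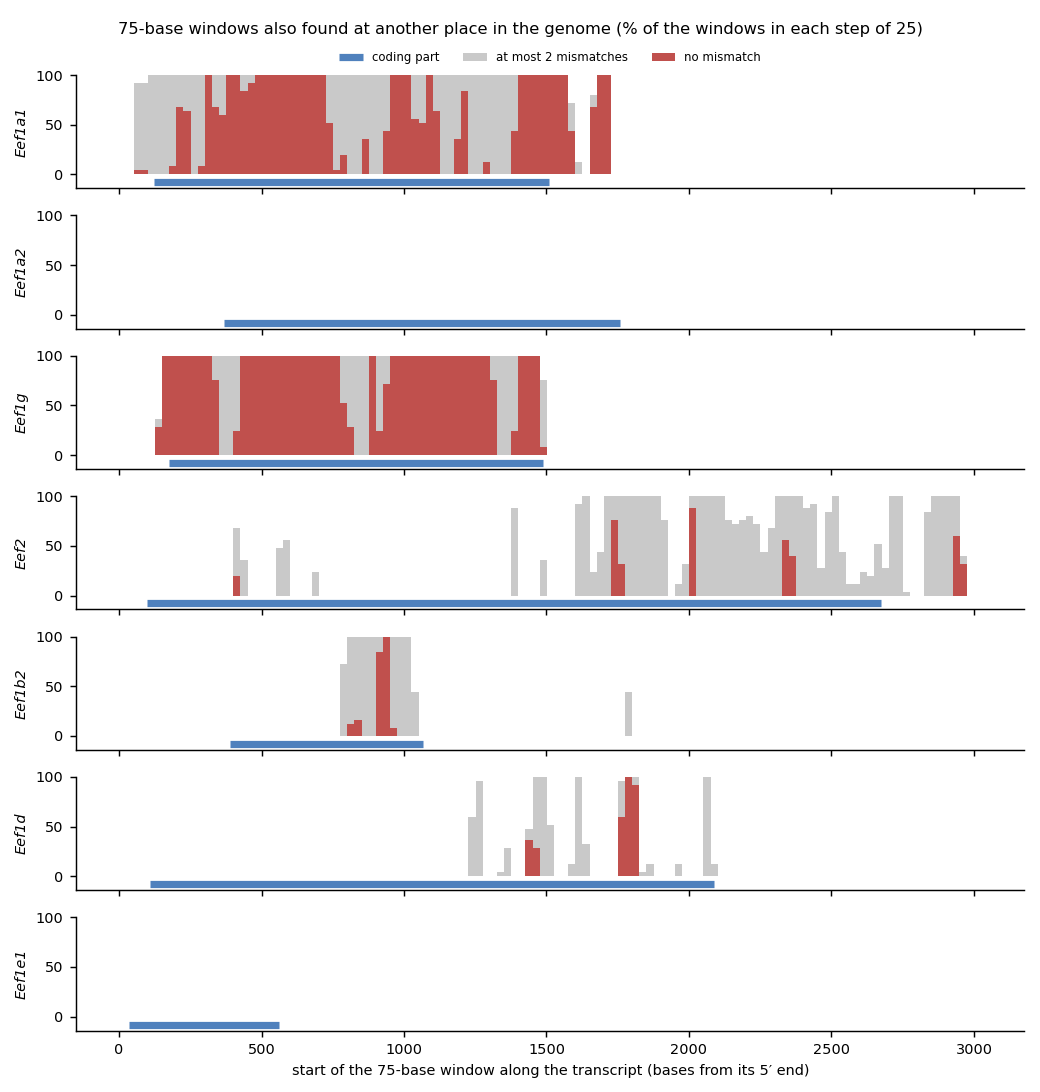
Share of 75-base windows of each member's transcript that occur at another place in the genome, exactly (red) or with at most 2 mismatches (grey), in steps of 25 bases along the transcript (x axis, bases from the 5′ end); the blue bar is the coding part. Nearly the whole of Eef1a1 and the coding part of Eef1g were shared, and Eef1a2 and Eef1e1 were not shared at all.

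RefSeq promoter windows of GRCm38.p6, from 250 bases before to 50 after the annotated start, were held for 5 of the 7 genes. They were searched on both strands for the TATA-type motifs TATATAA and TATAAA, whose matches can overlap. The window of Eef1a1, chr9:78481675-78481974 on the minus strand, is shown because an EF1a promoter drives the reporter, with the motif in capitals.
Eef1a1 promoter: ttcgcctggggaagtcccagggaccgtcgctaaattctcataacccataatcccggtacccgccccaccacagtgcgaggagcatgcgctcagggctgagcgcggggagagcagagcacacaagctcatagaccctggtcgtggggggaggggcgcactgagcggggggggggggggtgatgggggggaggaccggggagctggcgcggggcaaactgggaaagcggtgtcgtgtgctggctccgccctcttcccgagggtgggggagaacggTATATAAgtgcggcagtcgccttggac

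The Eef1a1 window held TATATAA on the sense strand, beginning at base 24 after the annotated start. Eef2 held TATAAA beginning 15 bases before its annotated start. Neither motif was found in the windows of Eef1a2, Eef1b2 and Eef1e1. Of all 32851 promoters in the table, 3.24% held TATATAA 13.6% held TATAAA and 15.1% held either of them.

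The libraries had 3857612 to 6485823 counts on genes, of which the 7 members took 0.251 to 1.07%, and intervals below cover the spread between libraries rather than depth. Mitochondrial genes took 59.2% and 36.1% of counts in the P3 libraries and 1.04 to 5.19% in the other 8. All 4 epithelial markers were detected in every population. Marker sums are in normalised CPM, which are counts scaled to the library size multiplied by its TMM scaling factor. The 6 Paneth cell markers summed to 398553 to 561640 CPM in the libraries labelled P2, against 501 to 62845 CPM in the others. Goblet cell markers were also highest in P2, at 46101 to 99070 CPM. The scaling factors of the P2 libraries were 0.687 and 0.707, so these sums are higher than the plain shares of their counts. The study's text places the secretory lineage in P3, so the markers and the text differ on these populations. The labels are kept as deposited, and P2 against P1 is given beside P3 against P1. Enterocyte markers were highest in P1 at 36139 to 41242 CPM, and stem cell markers in P4 and P5 at 4239 to 7101 CPM. The part of these marker differences in the results below was not tested. Defining markers of other tissues were low, with stroma, muscle and nerve genes summing to at most 4.40 CPM and lymphocyte genes to at most 311 CPM, the latter in P1. In these bulk libraries, fewer cells of a type and less RNA per cell cannot be told apart.

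Eef1a1 did not follow the EF1a gate at medium OSCAR. Its normalised level was 2723 and 2870 CPM in the EF1alow population P4 and 2517 and 2626 CPM in the EF1ahigh population P5. Both libraries of the brighter gate were therefore below both of the dimmer gate. The share of all genes separated in this way was not computed. The fitted difference, P5 against P4, was -0.12 on the log2 scale (95% interval -0.87 to 0.63; edgeR quasi-likelihood test, adjusted p = 1). The interval reaches 0.63, so equal levels were not shown. No gene of the 13706 tested passed an adjusted p of 0.01 in this contrast with edgeR (0%). An unadjusted p under 0.05 was found for 350 of the 13706 genes, a share below the 0.05 expected with no difference at all. DESeq2 called 30.

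At low OSCAR the order was the other way. P1, EF1alow, had 1812 and 1468 CPM of Eef1a1, and P3, EF1ahigh, had 3266 and 3073 CPM. On normalised CPM the groups did not overlap, although the share of all genes separated in this way was not computed. Without scaling they did overlap. P3 replicate 1 had 6152 of 3857612 counts on Eef1a1, a lower share than the 10697 of 6242043 in P1 replicate 1. The fitted difference was 0.95 on the log2 scale (SE 0.33, 95% interval 0.20 to 1.70). With edgeR's test this did not reach the threshold (adjusted p = 0.0543). Over the alternatives that left out no single library, the adjusted p ran from 0.000387 to 0.146. The highest of these came from an edgeR fit of only the 4 libraries compared. The difference was past the threshold with DESeq2, at 0.88 on the log2 scale (adjusted p = 0.000387). The part of the high mitochondrial share of the P3 libraries in this difference was not tested. With mitochondrial genes removed before scaling it was 1.01.

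The remaining EF1alow population, P2, resembled P1. It had 1866 and 1432 CPM of Eef1a1, overlapping the P1 libraries, and P2 against P1 was 0.01 on the log2 scale (95% interval -0.74 to 0.75, adjusted p = 0.988 in edgeR's test). With the labels of P2 and P3 exchanged, the gate contrast at low OSCAR would be this 0.01 in place of 0.95, so the reading of Eef1a1 at low OSCAR, its averaged contrast and its difference all rest on those labels. The contrast at medium OSCAR does not. The 6 EF1alow libraries ran from 1432 to 2870 CPM with a median of 1839, and the 4 EF1ahigh libraries from 2517 to 3266 CPM with a median of 2849. The ranges overlapped because P4, an EF1alow gate, sat with the EF1ahigh gates.

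Averaged over both matched pairs of gates, EF1ahigh against EF1alow gave 0.41 for Eef1a1 on the log2 scale (SE 0.23, adjusted p = 0.269 in edgeR's test). The contrast at low OSCAR exceeded that at medium OSCAR by 1.07 (SE 0.47, 95% interval 0.01 to 2.13, adjusted p = 0.143). DESeq2 gave a difference of 1.01 (adjusted p = 0.00675). With edgeR none of the 6 members tested was called for the averaged contrast, for which 0.0365% of all genes were called, or for the difference, for which 0.81% were. DESeq2 called Eef1b2, Eef1d and Eef1g for the averaged contrast, for which it called 1420 of all 13706 genes. For the difference it called these and Eef1a1, and 2053 of all genes.

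**Figure D2:**
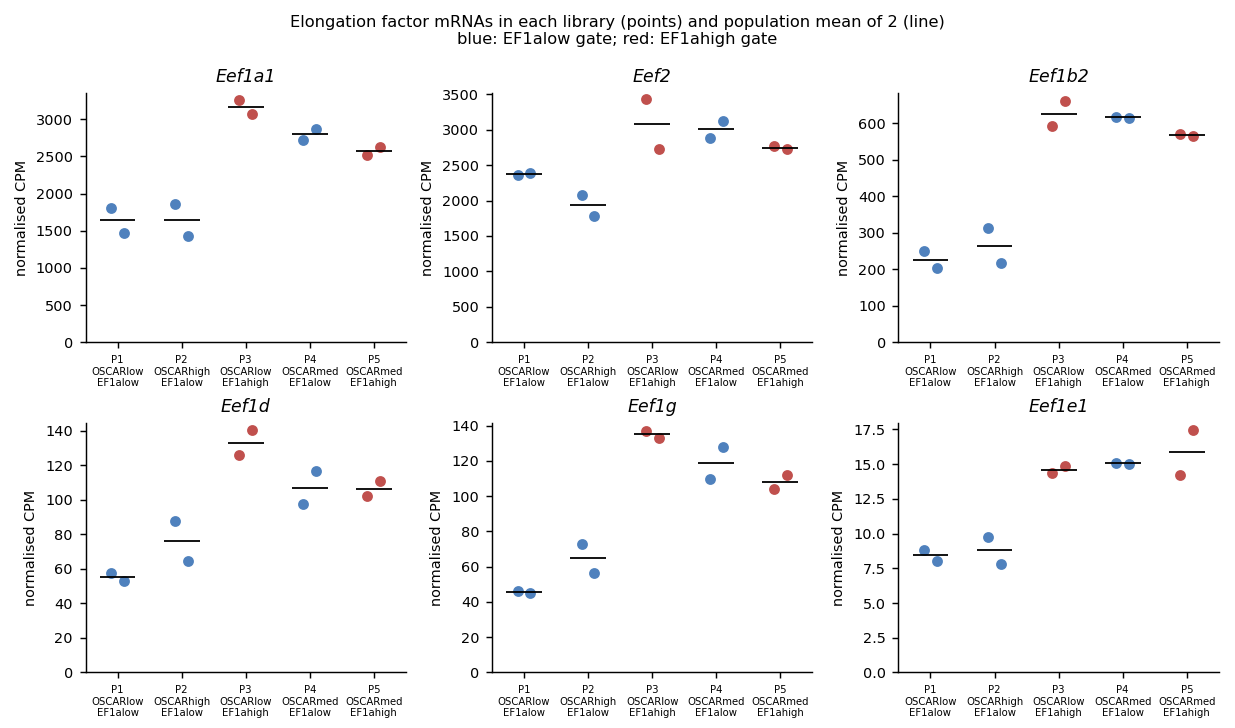
Normalised CPM (linear axis from 0) of 6 elongation factor genes in each library, with the mean of 2 libraries as a line and the gate colour blue for EF1alow and red for EF1ahigh. For Eef1a1, P4 (2723 and 2870 CPM) lay between P3 and P5, and P1 and P2 lay at 1866 CPM or below.

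Put in order of their means, the populations ran P1, P2, P5, P4 and P3 for Eef1a1, from 1640 ± 243 to 3170 ± 136 CPM (SD, n = 2). The largest step was that from P2 to P5, at 0.64 on the log2 scale (adjusted p = 0.179 in edgeR's test). Over the 6 detected members, 24 steps between neighbouring populations were looked at, and 0 passed the threshold with edgeR. The step of Eef1b2 from P2 to P5 was past it with DESeq2 (adjusted p = 0.000357) and with edgeR without the low-count filter (adjusted p = 0.00291). P4, P5 and P3 libraries all lay above those of P1 and P2 for Eef1a1. The share of all genes separated in this way was not computed, which holds also for the members and ratios below. Over the 5 populations Eef1a1 had an adjusted p of 0.0846 with edgeR and of 4.94e-05 with DESeq2.

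Eef1a2 had 0 counts in all 10 libraries, although none of its 2010 windows was shared. A count of 0 allows a level of up to 0.463 to 0.778 CPM in a library, counting 3 reads as the limit. This limit uses the unscaled counts of a library, unlike the normalised CPM of the other members. For P3 replicate 1, with a scaling factor of 0.496, it would be higher on the normalised scale. Reads of an Eef1a2 mRNA could be told from those of Eef1a1, since the coding parts were 79.8% identical over 1389 positions. The eEF1A mRNA that was detectable in these cells was that of Eef1a1.

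The eEF1B genes passed the threshold over the 5 populations with edgeR, where Eef1a1 did not. Eef1b2, Eef1d and Eef1g, all exchange complex subunits, differed over the 5 populations in edgeR's test (adjusted p = 0.00292, 0.00559 and 0.00106). These were 3 of the 6 members tested, where 36.3% of all genes were called. DESeq2 called 4 of the 6, Eef1a1 among them, where it called 7350 of 13706 genes. The shares of members and of all genes were not tested against each other. By mean, each was lowest in P1, higher in P2 without passing the threshold, and highest in P3. For Eef1b2 the P3 and P4 libraries overlapped, with P3 above P4 by 0.02 on the log2 scale (adjusted p = 0.976, edgeR). P4 was above P3 for 1 of the 6 members in this fit and for 3 with DESeq2's size factors. The order of P3 and P4 thus depends on the scaling for some members.

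Eef1b2, encoding the alpha exchange subunit, had 250 and 203 CPM in P1 and 313 and 216 CPM in P2. P3 reached 591 and 660 CPM, P4 618 and 613 CPM and P5 570 and 564 CPM. Every library of P3, P4 and P5 was above the highest of P1 and P2, a separation whose share over all genes was not computed. P3 against P1 was 1.47 on the log2 scale (SE 0.27), P4 against P1 1.44 (SE 0.27) and P5 against P1 1.32 (SE 0.27), and each was called (adjusted p = 0.00426, 0.00327 and 0.00542, edgeR). It was also called in P3 against P2, at 1.24 (adjusted p = 0.00623), and in P4 against P2, at 1.22 (adjusted p = 0.00895).

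Eef1g, the structural subunit, had the highest value of the members in P3 against P1, and Eef1b2 in P4 and in P5 against P1. P1 had 46.4 and 45.2 CPM, P2 73.2 and 56.2, P3 137 and 133, P4 110 and 128, and P5 104 and 112 CPM. The lowest library of P3, P4 and P5 was thus above the highest of P1 and P2. The log2 difference from P1 was 1.56 in P3, 1.38 in P4 and 1.24 in P5 (SE 0.20 in each, adjusted p = 0.0016, 0.00134 and 0.00239 in edgeR's test). Against P2 it was 1.06 in P3 and 0.88 in P4, both called (adjusted p = 0.00315 and 0.00982, edgeR). With DESeq2's size factors in the same test, the call of Eef1g in P4 against P2 ended (adjusted p = 0.0137), as did those of Eef1b2 in P3 and P4 against P2 (adjusted p = 0.0103 and 0.0115).

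Eef1d, the second exchange subunit, had 57.8 and 53.2 CPM in P1 and 87.5 and 64.7 CPM in P2. In P3 it had 126 and 140 CPM, in P4 97.3 and 116 CPM and in P5 102 and 111 CPM. The 2 P1 libraries lay below all others. Eef1d was called in P3, P4 and P5 against P1, at 1.26, 0.95 and 0.94 on the log2 scale (adjusted p = 0.00313, 0.00681 and 0.00812, edgeR), and in no pair with P2.

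The members called were thus 3 of 6 in P3 against P1, where 8.01% of all genes were called as higher and 15.6% in either direction. They were the same 3 in P4 against P1 (9.44% of all genes higher, 23.4% in either direction) and in P5 against P1 (8.59% and 19.8%). In P3 against P2 (10.6% higher) and P4 against P2 (6.31% higher) they were Eef1b2 and Eef1g. With edgeR none was called in P2 against P1, where 29.1% of all genes were, or in P5 against P2, where 15.9% were, although Eef1b2 passed in the latter under the other settings given above. P4 against P3 and P5 against P3 called 0% of genes, with 2079 and 1587 genes at an unadjusted p under 0.05 and 121 and 40 called by DESeq2. In all, 13 of 60 member-by-pair tests passed, and all 13 were higher in P3, P4 or P5 than in P1 or P2. Without both P3 libraries, whose mitochondrial shares were high, 8 calls were made, 3 each in P4 and P5 against P1 and 2 in P4 against P2. Leaving out either P1 library, or P4 replicate 2, lowered the calls over the 5 populations from 3 to 1, which was Eef1g. The 13 calls over pairs fell to 2 and 3 without P1 replicate 1 and 2, to 4 without either P4 library and to 6 without either P5 library.

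No eEF1B gene passed the threshold for the gate at medium OSCAR, where edgeR called 0% of all genes. The intervals reach above 0, so equal levels were not shown. P5 against P4 was -0.12 for Eef1b2 (95% interval -0.71 to 0.47), -0.01 for Eef1d (-0.47 to 0.45) and -0.14 for Eef1g (-0.57 to 0.29), all with an adjusted p of 1 in edgeR's test. For Eef1g the low-OSCAR contrast exceeded the medium one by 1.70 on the log2 scale (adjusted p = 0.0108). That was just outside the threshold, and inside it with DESeq2 (adjusted p = 1.61e-05). For Eef1b2 and Eef1d the difference was 1.58 and 1.27 (adjusted p = 0.0225 and 0.0218).

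Eef1e1, the synthetase-complex protein, was the least abundant detected member. Its counts were 27 to 165 in a library, with 8.81 and 8.03 CPM for P1, 9.75 and 7.81 for P2, 14.3 and 14.9 for P3, 15.1 and 15.0 for P4, and 14.2 and 17.5 CPM for P5. The P3, P4 and P5 libraries again lay above those of P1 and P2. No pair passed, the nearest being P5 against P1 at 0.91 on the log2 scale (SE 0.28, adjusted p = 0.0275 in edgeR's test).

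Eef2, the translocation factor, varied least. P1 had 2356 and 2390 CPM, P2 2081 and 1788, P3 3439 and 2726, P4 2881 and 3127, and P5 2764 and 2728 CPM. P3 against P1 was 0.38 on the log2 scale (95% interval -0.37 to 1.13, adjusted p = 0.41 in edgeR's test) and P5 against P4 was -0.13 (-0.88 to 0.62). P2 against P1 was -0.29 (adjusted p = 0.494). No pair was called by edgeR, and P4 against P2, at 0.64, was called by DESeq2 (0.60, adjusted p = 0.00773).

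**Figure D3:**
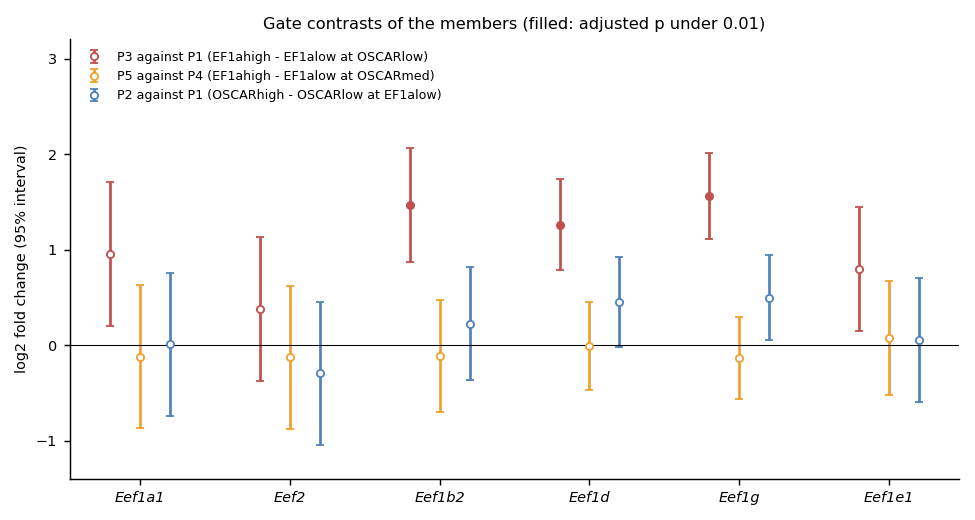
Log2 fold change and its 95% interval for 6 members in P3 against P1, P5 against P4 and P2 against P1, from the fit over 10 libraries; filled points passed an adjusted p of 0.01. The 3 filled points are Eef1b2, Eef1d and Eef1g in P3 against P1, while every interval for P5 against P4 spans 0.

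Per kilobase of annotated exons, Eef1a1 and Eef2 were the abundant members, at 574 to 1310 and 577 to 1110 RPKM (the CPM for each kilobase) over the 10 libraries. Eef1b2 followed at 80.3 to 261 RPKM. Eef1g had 17.4 to 52.7, Eef1d 9.02 to 23.8 and Eef1e1 7.56 to 16.9 RPKM. The annotated exons of Eef1d add to 5897 bases, against 2842 in its transcript used above and 1032 for the exons of Eef1e1. Its RPKM, and so its place in this order, depend on that length. The RPKM of Eef1g and Eef1a1 divide by the whole exon length, although 60.2% and 53.1% of their windows had an equal place elsewhere.

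Ratios of counts within a library need no scaling between libraries. For every 100 counts on Eef1a1 there were 13.8 and 13.9 on Eef1b2 in P1 and 16.8 and 15.1 in P2. The ratio was 18.1 and 21.5 for P3, 22.7 and 21.4 for P4 and 22.7 and 21.5 for P5. For Eef1g it was 2.56 and 3.08 in P1 and 3.92 to 4.46 in the other 8 libraries. Eef2 ran against them, with 1.30 and 1.63 counts for each count on Eef1a1 in P1, 1.12 and 1.25 in P2, and 0.887 to 1.10 in P3, P4 and P5. These ratios were not tested.

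Ribosomal protein genes, whose products the elongation factors work on, gave a second yardstick. Copies and windows shared with other places in the genome were not searched for in these genes. Their 84 genes took 0.297 to 0.466% of counts in P1 and P2 and 0.591 to 1.74% in the others. For every 1000 counts on them there were 48.4 to 58.3 on Eef1b2 in all 10 libraries, so that Eef1b2 kept nearly in step with them. For every 100 there were 33.2 to 36.7 on Eef1a1 in P1 and P2 and 24.8 to 27 in the other 6 libraries, without overlap. Eef2 had 47.8 and 56.9 in P1, 37.0 and 42.4 in P2 and 22.0 to 28.4 in P3, P4 and P5. Relative to ribosomal protein counts, both were thus higher in the 4 libraries of P1 and P2.

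The counts on copies of Eef1a1 moved with Eef1a1. Gm13456, at chr2:40411205-40412952, covered 96.8% of the transcript at 97.1% identity and took 51548 counts over the 10 libraries, and Gm6548, at chr17:79249840-79251571, took 8319. The other 3 copies named by the rule were Gm5822, Gm6767 and Gm12912, with 76, 35 and 34 counts. Copies together had 36.1 to 41.5% of the counts of Eef1a1 in a library. The level of Gm13456 was 601 and 508 CPM for P1, 619 and 463 for P2, 1011 and 1092 for P3, 968 and 1001 for P4, and 864 and 903 CPM for P5, the same order as Eef1a1 except that P2 was below P1. Its P5 against P4 difference was -0.16 on the log2 scale and its P3 against P1 difference 0.92 (adjusted p = 0.0282 in edgeR's test). Adding the counts of copies to Eef1a1 changed its difference between P5 and P4 from -0.12 to -0.13 and that between P3 and P1 from 0.95 to 0.94. Whether these counts come from the copies or from Eef1a1 cannot be told from counts. Copies of Eef2, Gm13050 and Gm11400, had 9.29 to 11.9% of its counts, and the 1 copy of Eef1g with a row, Gm4462, had 1.16 to 4.38%.

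**Figure D4:**
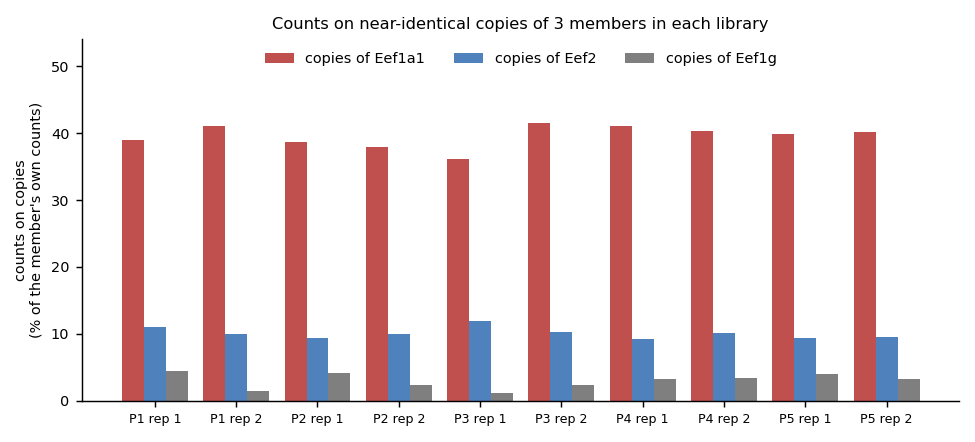
Counts on annotated near-identical copies of Eef1a1, Eef2 and Eef1g in each library, as a percentage of the counts on the gene itself. The share for Eef1a1 stayed between 36.1 and 41.5% in all 10 libraries.

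Other genes of translation were read in lists, each set beside the median of all genes tested, which was between -0.03 and 0.06 on the log2 scale in the contrasts with P1. Among 80 ribosomal protein genes tested, 43 were called in P3 against P1, 46 in P4 against P1 and 37 in P5 against P1, all of them higher. Of all genes, 8.01%, 9.44% and 8.59% were called as higher in these contrasts, and 15.6%, 23.4% and 19.8% in either direction. The medians of the ribosomal protein genes were 1.46, 1.37 and 1.21. The medians of the 6 elongation factors were 1.11, 0.89 and 0.92. In P2 against P1, 4 ribosomal protein genes were called, 3 higher and 1 lower, where 29.1% of all genes were called. Their median was 0.27 over the genes tested, against 0.14 for the elongation factors. Rps19 and Rplp2, proteins of the small and large subunit, were 2.01 and 1.82 higher in P3 than in P1, and Rps26 and Rpl14 1.59 and 1.82. Between P5 and P4 the median of the ribosomal protein genes was -0.15 and that of the elongation factors -0.12, with 0 called in either list.

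Of 37 initiation factors, 5 were called in P3 against P1 (median 0.45), where 15.6% of all genes were called in either direction. In P4 against P1, 7 were called, 4 of them higher, where 23.4% of all genes were. These shares were not above those of all genes. Eif3i, a subunit of the scaffold that joins mRNA to the small subunit, was 1.07 higher in P3 than in P1 (adjusted p = 0.00438 in edgeR's test). Eif6, which keeps the large subunit from joining too early, ran the other way, at -1.76 in P4 and -1.83 in P2 against P1. Eif4ebp1, a repressor of cap recognition, was 2.27 higher in P2 than in P1 and -0.28 in P4 (adjusted p = 0.00136 and 0.549).

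The aminoacyl-tRNA synthetases, which charge the tRNAs that eEF1A carries, differed in the P2 libraries instead. There 14 of 22 were called against P1, 11 higher and 3 lower, with a median of 0.92, where 29.1% of all genes were called. Wars and Mars, the enzymes for tryptophan and methionine, were 2.92 and 2.53 higher in P2 than in P1. In P3 against P1, 4 of the 22 were called with a median of 0.34, a share near the 15.6% of all genes. Wars was 0.28 there (adjusted p = 0.433 in edgeR's test). The Paneth cell marker sum moved with these genes in P2, and its part in them was not tested.

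Of the genes for modification and regulation of elongation factors, 1 of 10 was called in P3, P4 and P5 against P1, where 15.6%, 23.4% and 19.8% of all genes were. It was Dph1, which begins the diphthamide modification of eEF2, at 1.93 higher in P3 and 2.41 higher in P4. In P2 against P1 the 1 call was Eef2k, the kinase that inhibits eEF2, at 1.51 higher (adjusted p = 0.00349 in edgeR's test). Among 5 genes for release, recycling and rescue, 2 were called in P3 against P1, 1 higher and 1 lower, where 15.6% of all genes were. In P2 against P1, 1 was called, where 29.1% of all genes were. Abce1, which splits ribosomes after termination, was 1.51 higher in P3 and 1.504 higher in P2 than in P1. Hbs1l, of the rescue of stalled ribosomes, was -0.95 in P3 against P1. Of the 5 mitochondrial elongation factors, 1 was called in P3 and 2 in P4 against P1, all higher, where 15.6% and 23.4% of all genes were. In P2 against P1, 1 was called, lower, where 29.1% of all genes were. Tsfm, the exchange factor for the mitochondrial eEF1A counterpart, was 1.93 higher in P3 and 1.37 higher in P4 than in P1. For the mitochondrial list the median was 0.99 in P3 against P1 and -0.19 in P2 against P1.

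**Figure D5:**
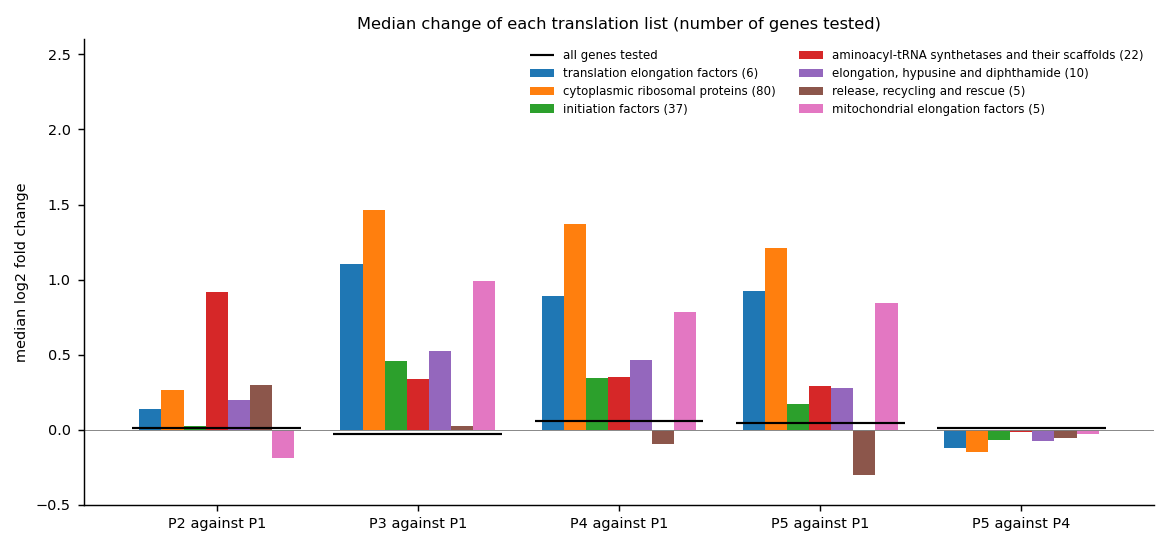
Median log2 fold change of 7 lists of translation genes (bars, number of genes tested in brackets) and of all genes tested (black lines) in 5 contrasts. Ribosomal proteins and elongation factors had the highest medians in P3, P4 and P5 against P1, and in P5 against P4 all 7 medians lay between -0.15 and -0.01.

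The genes whose log2 CPM was most like that of Eef1a1 over the 10 libraries, among 13694 compared, were Gm13826, Gm11478, Rps4x, Rps15a and Eif3i. Their Pearson r with Eef1a1 was 0.994, 0.993, 0.993, 0.992 and 0.991, given as a description over libraries that share their populations and scaling. Rps4x, a small-subunit protein, had 111 and 74.9 CPM for P1, 113 and 70.0 for P2, 277 and 276 for P3, 234 and 233 for P4, and 219 and 224 CPM for P5, which was the order of Eef1a1 but for P1 and P2. Among the members, r with Eef1a1 was 0.971 for Eef1b2, 0.952 for Eef1g, 0.932 for Eef1d, 0.933 for Eef1e1 and 0.879 for Eef2.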

How the data were processed

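Poly-A RNA of sorted crypt cells was read for 75 cycles. The authors mapped reads to mm9 with TopHat2 2.1.0 and Bowtie after FastQC 0.11.5, and the deposited values are raw counts per gene made by HTSeq 0.11.2 on exons without regard to strand. Reads with several alignments are left out by that counter's default. No annotation version was given in the sources used here, and 33643 of 35006 names were found in GENCODE vM1 on NCBIM37, used for positions and lengths.

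Samples were grouped by the population in their titles. The 206 rRNA names were removed and an unnamed row (at most 0.000596% of counts) left out. Genes were kept by filterByExpr, which left 13706, scaled by TMM, and 5 population means were fitted with edgeR 4.0.16 (R 4.3.3) by the quasi-likelihood F test. P-values were adjusted by Benjamini-Hochberg over all genes in each contrast and called under 0.01. Normalised CPM use TMM library sizes. SEs come from the F statistics. An exact test of a single gene cannot pass 0.05 with 2 libraries against 2, and none was used.

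Copies were found with blastn 2.17.0 (at least 50% of the transcript, 90% identity), and 75-base windows were compared with copies and the genome. Alternatives were DESeq2 1.42.0 and its size factors, no low-count filter, a threshold of 0.05, mitochondrial genes removed, a replicate block, only the libraries compared, copies added, and each library left out. The edgeR script was tested on simulated data. Genes other than the members were named by rule: at most 5 copies of Eef1a1 with most counts, the 5 genes most like it, and up to 4 per list with the smallest p over the populations. The copies of Eef2 and Eef1g fall outside it and were named after their values were seen. Members, lists and tests were chosen with earlier results of these data known. The locus Gt(ROSA)26Sor was not analysed here.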

Additional observations from a re-analysis of the deposited data

How the results depend on the processing

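The difference of Eef1a1 between P5 and P4 stayed below 0 and uncalled in every alternative run, from -0.16 to -0.12 and, with 1 library left out, from -0.15 to -0.07. DESeq2 brought Eef1a1 past the threshold in P3 against P1 (0.88) and for the difference between the gate contrasts (1.01), and no other setting did in these contrasts. With 1 library left out these ran from 0.83 to 1.10 and from 0.95 to 1.22, and the averaged contrast from 0.35 to 0.49. The cause was not tested. The count of members called over the 5 populations ran from 1 to 3 with 1 library left out, with 1 without either P1 library or P4 replicate 2, and was 3 without both P3 or both P2 libraries, which were chosen after seeing the data. The 13 calls over pairs became 2 and 3 without a P1 library, 4 without either P4 library, 6 without either P5 library and 12 at most. They were 6 when only the libraries compared were fitted, which leaves fewer samples, and 8 without both P3 libraries, which leaves fewer pairs. The difference of Eef1a1 between P2 and P1 turned to -0.0039 without a low-count filter and -0.0091 with copies added, and lay between -0.19 and 0.20 with 1 library left out. With 1 library left out, P2 against P1 ran from -0.062 to 0.48 for Eef1b2 and from -0.10 to 0.22 for Eef1e1, and P5 against P4 from -0.13 to 0.14 for Eef1d and from -0.079 to 0.22 for Eef1e1. At a threshold of 0.05, 4 members were called over the populations and 19 calls made over pairs. Removing mitochondrial genes moved the median of all genes from 0.01 to 0.16 in P2, from 0.06 to 0.26 in P4 and from 0.04 to 0.20 in P5 against P1.

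Same-numbered libraries of different populations deviated from their means with correlations of -0.06 to 0.55 (median 0.26, 9 of 10 pairs over 0.1). The labels do not say that a number marks a shared animal or day, so the numbers were taken as names. With the replicate block, 3 members were called over the 5 populations, 12 calls were made over pairs, and the Eef1a1 differences were -0.12 in P5 against P4 and 0.96 in P3 against P1. The block brought Eef1g past the threshold for the difference between the gate contrasts (1.70, adjusted p = 0.00815, edgeR) and ended its call in P4 against P2 (0.88, adjusted p = 0.0102). Depth limits Eef1e1 and Eef1a2 most.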

Other observations

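Adding the counts of Eef1a1 and of its copies left the order of P5, P4 and P3 as for Eef1a1 alone and put P2 below P1 by less than 0.01 on the log2 scale. Of the 13 places in the genome that resemble the Eef1a1 transcript, 7 had a row in the count tables, and 2 of these, AC122119.1 and AC133509.1, are annotated as microRNA genes and had 1 and 0 counts. Eef1g had 4 such places, 1 of them with a row, and the one on chromosome 7 was 99.6% identical over 76.4% of the transcript. In P3 replicate 1, the library with the fewest counts, copies took 36.1% of the Eef1a1 counts, the lowest share of the 10, and in P3 replicate 2 they took 41.5%, the highest. Eef1g had 0.804 to 0.869 counts for each count on Eef1d in the 4 libraries of P1 and P2 and 0.951 to 1.13 in the other 6, without overlap.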
